A study of Mus musculus with 2 samples.

Results

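The AP-1 genes encode the Fos and Jun proteins and close relatives, and the 10 described here are Fos, Fosb, Fosl1, Fosl2, Jun, Junb, Jund, Atf3, Batf and Batf3. Their regions were the ATAC-Seq peaks that the deposited list assigned to these 10 symbols, which came to 23 of 26232 distinct peaks. Every one of the 10 genes had at least 1 peak, against 62.5% of protein coding genes (95% Wilson interval 61.9 to 63.2%), and 5 of 10 had a peak wider than 3000 bp, against 1.18% of protein coding genes. Jun, Junb, Jund, Fos and Atf3 held these wide peaks. No peak lay within 500 bp of an annotated start of Fosb or Batf.

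ATAC-Seq, in which the Tn5 transposase cuts and tags accessible DNA, was performed on day 5 CPCs, the cardiac progenitor cells obtained by differentiation in culture. The cells came from 1 mouse embryonic stem (ES) cell line, E14 Tg(Nkx2-5-EmGFP), which reports Nkx2-5 activity by green fluorescence. The line is labelled as strain C57BL/6, and the paper names no strain for it. It was kept on mouse embryonic fibroblasts. The paper's directed differentiation used activin A, BMP4 and VEGF followed by bFGF and FGF10. The paper also describes a hanging drop method, and its ATAC-Seq methods do not name which of them gave these cells. The 2 samples were replicates from independent differentiations without knockdown, sorting of the cells for this assay was not described, and the Isl1 knockdown cells that the series names were not analysed here. Both replicates stood behind 1 shared list with no signal value, so that depth was unknown, no value had a replicate error and no test was possible.

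AP-1 is a family of dimers of basic leucine zipper (bZIP) proteins. Fos proteins bind DNA only with a partner such as a Jun protein, whereas Jun proteins also pair with each other, and Atf3, Batf and Batf3 join as further partners. The dimers recognise the TRE, a palindrome with a single base at its centre, and the related CRE, which is 1 base longer. Several of these genes are immediate early genes, switched on by growth factors and stress without new protein synthesis, and Fos is the textbook case, induced by serum response factor (SRF) at a CArG box in its promoter.

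Of the marker genes of cardiac progenitors, 5 of 6 had a peak, with none for Hand2. Peaks were also assigned to 3 of 4 markers each of pluripotent cells (none for Pou5f1), endothelial cells (none for Tek) and fibroblasts or feeder cells (none for Postn). Of all protein coding genes, 62.5% had an assigned peak. A peak within 500 bp of a start annotated in GENCODE was found for 4 of 6, 2 of 4, 1 of 4 and 3 of 4 of these markers, in the same order, against 56.3%. Mef2c was not counted there, although 1 of its peaks had a deposited distance of 16 bp. Deposited distances can refer to a start other than the GENCODE ones. The part of such cells in the peaks of the AP-1 genes was not tested. In a bulk peak list, a site open in a few cells and a site weakly open in many cannot be told apart.

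The stretches printed first carry every CArG box found inside a peak of an AP-1 gene, and the TATA letters just before the starts of Fos and Junb. Further TATA letters, in peaks of Fos, Fosl1, Jun and Atf3, are not printed. The printed stretches were chosen because such letters are known from the regulation of immediate early promoters. They were read from NCBIM37 (mm9) on the strand of the gene, 5′ to 3′, with positions counted in bp from the annotated start (negative before it, and for a match the position of its 5′ base), and capitals mark the CArG box or the letters TATAAA. The Fos upstream stretch is chr12:86814520-86814819 (plus strand), from -320 to -21 bp, and the Fos downstream stretch is chr12:86827014-86827123 (plus strand). The Junb stretches are chr8:87502618-87502737 and, past the gene end, chr8:87500473-87500582 (both minus strand).
Fos upstream: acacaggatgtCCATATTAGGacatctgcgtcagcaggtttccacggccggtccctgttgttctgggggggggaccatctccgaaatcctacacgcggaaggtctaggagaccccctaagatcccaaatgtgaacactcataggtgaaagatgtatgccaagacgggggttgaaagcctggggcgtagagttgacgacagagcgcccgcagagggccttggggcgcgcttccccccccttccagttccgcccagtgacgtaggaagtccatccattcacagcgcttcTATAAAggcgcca
Fos downstream peak: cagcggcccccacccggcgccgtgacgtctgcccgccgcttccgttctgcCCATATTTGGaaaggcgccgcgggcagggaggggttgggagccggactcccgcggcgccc
Junb upstream: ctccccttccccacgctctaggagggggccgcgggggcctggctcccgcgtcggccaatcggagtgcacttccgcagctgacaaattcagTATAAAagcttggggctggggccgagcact
Junb past the gene end: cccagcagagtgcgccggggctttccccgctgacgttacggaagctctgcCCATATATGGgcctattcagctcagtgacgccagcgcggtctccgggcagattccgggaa

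The next stretches carry a TRE type match (TGANTCA) or a CRE type match (TGACNTCA), and capitals mark only such matches. With any base allowed at N, these patterns include the TRE and CRE that AP-1 dimers recognise and also near matches to them. They lie, in the order printed, at chr4:94718914-94719033 and chr4:94821040-94821196 (minus strand), chr5:32438177-32438283 (plus), chr19:5447887-5447913 (plus), chr8:73222624-73222651 (plus), chr7:19912647-19912753 (minus), chr1:193040134-193040240 and chr1:193048272-193048378 (minus) and chr1:192944746-192944853 (plus). The Fosl1 and Jund stretches are short cuts from untranslated exon sequence.
Jun upstream: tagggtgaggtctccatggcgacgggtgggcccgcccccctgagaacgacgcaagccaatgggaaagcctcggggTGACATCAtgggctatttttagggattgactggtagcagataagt
Jun far upstream peak: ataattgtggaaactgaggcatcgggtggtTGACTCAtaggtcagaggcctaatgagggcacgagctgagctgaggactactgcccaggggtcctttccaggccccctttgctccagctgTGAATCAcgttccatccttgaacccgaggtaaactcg
Fosl2 upstream: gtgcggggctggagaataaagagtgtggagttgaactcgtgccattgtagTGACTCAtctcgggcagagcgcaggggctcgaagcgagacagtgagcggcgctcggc
Fosl1 exon: gaggcgcgagTGAGTCAgaaccgcagc
Jund exon: cccacccccaTGACGTCAacccacaatg
Fosb far upstream peak: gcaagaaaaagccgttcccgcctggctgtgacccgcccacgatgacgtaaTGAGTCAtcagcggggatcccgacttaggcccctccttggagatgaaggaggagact
Atf3 first upstream peak: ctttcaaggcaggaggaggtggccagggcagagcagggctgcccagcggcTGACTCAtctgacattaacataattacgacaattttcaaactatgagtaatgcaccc
Atf3 far upstream peak: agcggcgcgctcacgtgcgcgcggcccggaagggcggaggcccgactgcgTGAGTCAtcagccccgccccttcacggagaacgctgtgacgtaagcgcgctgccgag
Batf3 downstream peak: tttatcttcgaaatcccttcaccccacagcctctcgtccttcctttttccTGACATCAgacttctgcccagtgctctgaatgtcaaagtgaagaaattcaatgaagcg

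Among the Fos genes, Fos itself (chr12:86814840-86818223, plus strand) had 4 peaks. The widest, chr12:86812585-86815670, measured 3086 bp and ran from -2255 to 830 bp, covering 24.6% of the gene. The other 3 Fos peaks lay in intergenic DNA, with deposited distances from the start to the midpoint of -43228, 12140 and 24092 bp and widths of 880, 1336 and 1077 bp. The starts of the nearest protein coding neighbours, Tmed10 and Jdp2, were 99.2 and 126 kb away.

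The Fos start-site peak held the CArG box printed above at -309 bp, TATAAA at -33 bp and a TRE type match (tgaatca) at -462 bp. The downstream Fos peak at 12140 bp held a second CArG box, 78 bp from the peak midpoint. The observed over expected CpG ratio of this peak was 0.65, against a median of 0.23 over all peaks beyond 10 kb from a start. The other intergenic Fos peaks, at -43228 and 24092 bp, had ratios of 0.14 and 0.17.

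Fosb (chr7:19888070-19895394, minus strand) encodes a Fos protein whose truncated splice form lacks an activation domain. It had 3 peaks, and the nearest, chr7:19892196-19894589, began 805 bp after the start, was 2394 bp wide and lay with its midpoint in an intron. A CArG box (ccttatatgg) stood at -272 bp from the Fosb start and was not inside any peak. The Fosb start had a GC content of 59.2% and a CpG ratio of 0.85 in 500 bp on either side. The upstream Fosb peaks were 1467 and 1923 bp wide at -9922 and -16961 bp.

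Fosl1 and Fosl2 encode the Fos-related antigens Fra-1 and Fra-2, which lack the strong activation domain of Fos. Each had 1 peak. The Fosl1 peak (chr19:5447120-5448266) was 1147 bp wide and centred on the start, from -583 to 563 bp, with the TRE type match of the printed exon stretch at 194 bp. The Fosl2 peak (chr5:32437291-32438832) was 1542 bp wide and ended 13 bp before the annotated start, with its TRE type match at -618 bp. It had the highest GC content of the 23 peaks (67.1%) and the highest CpG ratio (0.93).

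**Figure D1:**
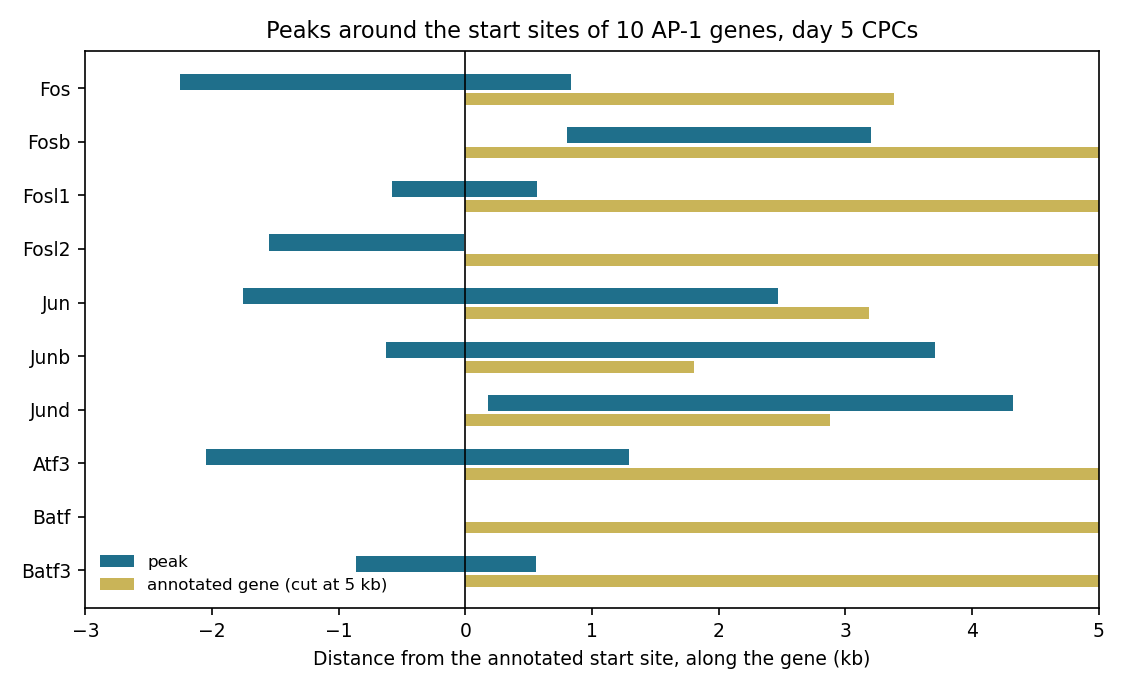
Peaks (blue) and annotated genes (yellow, cut at 5 kb) around the start of each of the 10 AP-1 genes, drawn along the direction of transcription with the distance from the start in kb on the x axis and 1 gene per row. The Junb peak spans the whole gene, the Fosb peak begins 805 bp inside the gene, and Batf has no peak in the window.

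The Jun genes encode the obligate partners of Fos proteins, and all of the 3 had a peak over 4 kb wide. The Junb peak (chr8:87498910-87503244) measured 4335 bp and was the widest of the 23. The Jun peak (chr4:94716447-94720673) measured 4227 bp and the wide Jund peak (chr8:73221817-73225958) 4142 bp. These widths stood at percentiles 99.8, 99.8 and 99.7 of all start-site peaks, those with a midpoint within 1 kb of the start. The Junb and Jund peaks, with deposited distances of 1571 and 2249 bp, are not in that class themselves. Among all peaks, each of the 3 widths stood at percentile 99.8.

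Junb (chr8:87500811-87502617, minus strand), which often restrains growth where Jun promotes it, is a gene of 1807 bp. Its peak ran from -627 to 3707 bp, so that 100% of the gene lay inside the peak. The deposited distance to the midpoint was 1571 bp, counted from a slightly different start, whereas other positions here are from the annotated start. A CArG box stood 2085 bp after the start, beyond the gene end, with 2 CRE type matches further on at 2748 and 3424 bp. TATAAA stood at -30 bp from the Junb start. No second peak was assigned to Junb, although 14 peaks, its own included, lay within 50 kb of its start, and the neighbouring genes Prdx2 and Hook2 lay 8.5 and 11.9 kb away.

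Jund (chr8:73221638-73224515, plus strand), the member known for steady rather than induced expression, had 93.8% of its gene inside the wide peak. That peak began 179 bp past the first annotated start and covered a second annotated start of the gene. It also covered the start of the overlapping gene model Gm11175, to which the peak went when each peak was given to the nearest annotated protein coding start. The peak held an exact CRE (tgacgtca) at 996 bp after the first start and an exact TRE (tgagtca) at 3431 bp. The first Jund start was poor in CpG, with a GC content of 46.6% and a ratio of 0.24. The other Jund peak was 1097 bp wide at -5848 bp and held TRE type matches at -6313 and -6246 bp.

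Jun (chr4:94715725-94718913, minus strand) had 4 peaks, and the start-site peak reached from -1760 to 2466 bp, over 77.4% of the gene. The CRE type match (tgacatca) printed above stood at -45 bp. This peak also held annotated starts of BC042782, a processed transcript on the opposite strand. The other 3 Jun peaks lay far upstream at -85593, -101784 and -109231 bp, were 1018, 1066 and 1245 bp wide, and all had midpoints inside BC042782. The peak at -101784 bp held 2 TRE type matches, both in the printed stretch. Only 1 peak lay within 50 kb of the Jun start, its own start-site peak, and the next protein coding gene upstream, Fggy, was 505 kb away.

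Atf3, a stress-induced bZIP protein that pairs with Jun proteins, had 3 peaks (gene at chr1:192994175-193007219, minus strand). The start-site peak (chr1:193005929-193009266) was 3338 bp wide, from -2047 to 1290 bp, with an exact TRE (tgactca) in an intron at 549 bp. The upstream peaks at -33215 and -41308 bp were 977 and 1647 bp wide, and each held 1 exact TRE. The farther one contained the start of D730003I15Rik, a long intergenic noncoding RNA.

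The surroundings of the TRE in this far Atf3 peak and of 1 TRE in the far upstream peak of Fosb shared a run of 12 bases, TGAGTCATCAGC, as the printed stretches show. This was the longest run shared between the surroundings (50 bp on either side) of TRE type matches of different AP-1 genes, over 81 pairs, and the next longest was 10 bases. The compared stretches included the matches themselves. The letters TGAGTCA of the run are thus the TRE by which the sites were chosen, and only TCAGC lies beyond it. The run, on either strand, stood in 5 of the 26232 peaks.

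Batf and Batf3 encode short bZIP proteins best known from lymphocytes and dendritic cells. Batf (chr12:87027619-87050037, plus strand) had 1 peak, 1359 bp wide at 18838 bp inside an intron, and its nearest peak edge lay 18211 bp from the start. Batf3 (chr1:192922293-192932822, plus strand) had a start-site peak of 1417 bp and peaks of 734 and 937 bp at 22515 and 27823 bp, past the gene. The first of these held a CRE type match 8 bp from its midpoint. The Batf3 start had the highest GC content of the 10 starts (69.8%), and the Batf start was poor in CpG (ratio 0.34).

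**Figure D2:**
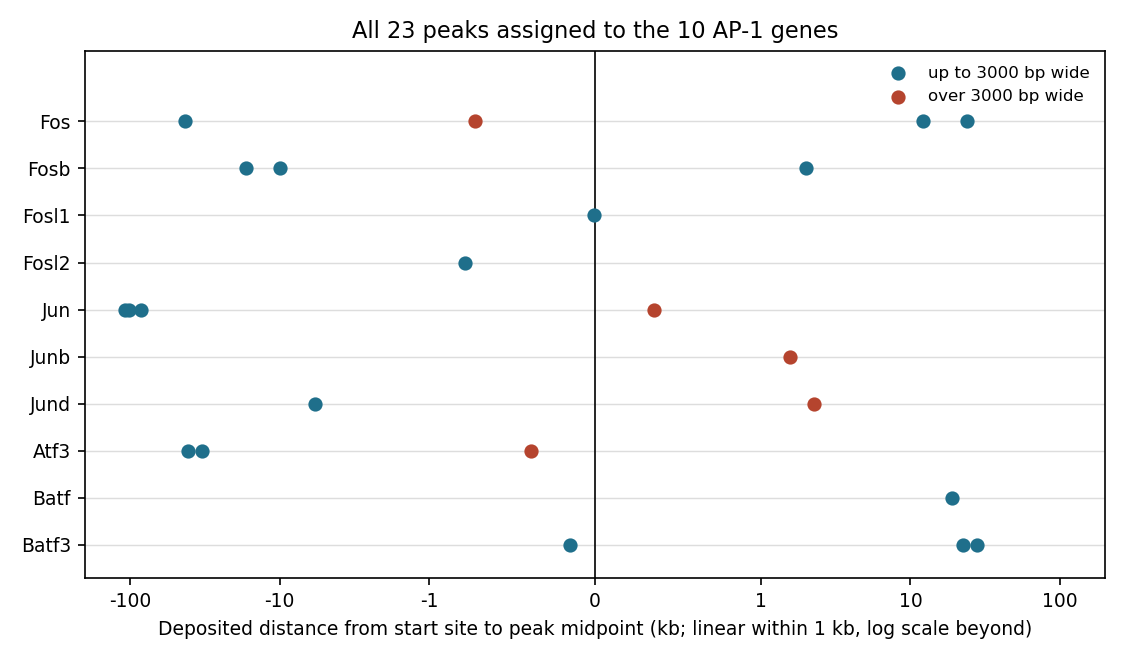
Deposited distance of all 23 peaks from the start of their gene (x axis in kb, linear within 1 kb and logarithmic beyond), 1 gene per row, with peaks over 3000 bp in red. The 5 wide peaks lie at -724 to 2249 bp, and the 3 far Jun peaks lie upstream.

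A pair of loci held more than 1 AP-1 gene. On chromosome 12, Jdp2, a bZIP repressor that dimerises with Jun proteins, started 126 kb and Batf 213 kb after Fos. Of the 13 peaks from Nek9 to Mfsd7c, 4 were assigned to Fos, 4 to Jdp2 and 1 to Batf, and the Jdp2 start-site peak was 2085 bp wide. On chromosome 1, the Batf3 start lay at -84.9 kb from the Atf3 start along the chromosome and the genes pointed towards each other, with Fam71a between them. The 2 downstream Batf3 peaks lay between both genes, from -62.8 to -56.6 kb on the same scale, and the list gave them to Batf3, the nearer start.

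**Figure D3:**
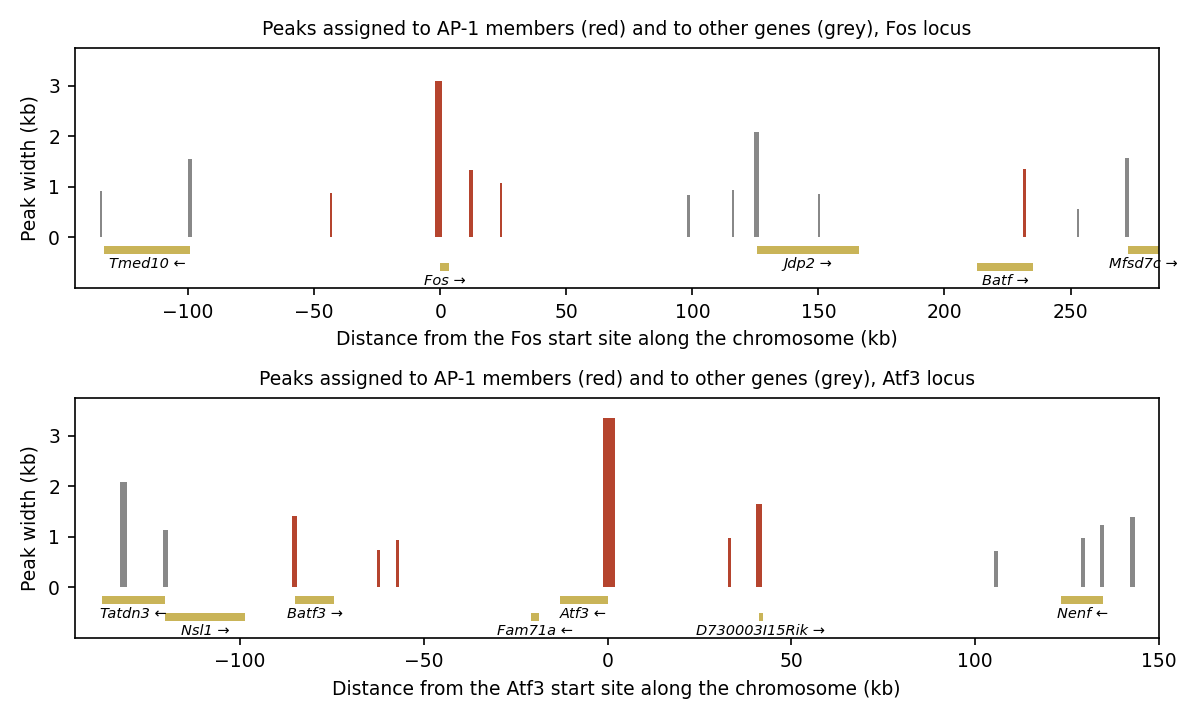
Peaks of the Fos and Atf3 loci by distance from the start of Fos (top) and Atf3 (bottom) in kb along the chromosome, with bar height giving peak width in kb, bars drawn at least 0.9 kb broad, and yellow blocks for genes with an arrow for the strand. Red bars belong to the AP-1 genes and grey bars to other genes. The tallest bar of each panel is the start-site peak of Fos (3086 bp) or Atf3 (3338 bp).

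Counted over the 10 genes, 8 of 10 had a peak within 500 bp of an annotated start, against 56.3% of protein coding genes. At least 3 peaks were assigned to 5 of 10 (Fos and Jun with 4 each, Fosb, Atf3 and Batf3 with 3 each), against 10.3%. A peak beyond 1 kb of the start was found for 8 of 10, against 31.9%. The mean was 2.3 peaks per AP-1 gene and 1.71 per protein coding gene with a peak, and the medians were 2.5 and 1. With 10 genes chosen by name these shares are descriptions.

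The AP-1 start-site peaks were on the wide side. The 6 start-site peaks, those with a midpoint within 1 kb of the start, had a median width of 2314 bp (range 1147 to 4227 bp) against 1326 bp over all 11772 start-site peaks (quartiles 1072 and 1691 bp). Fosl1, Batf3 and Fosl2 had widths up to 1542 bp, and Fos, Atf3 and Jun had widths of 3086 bp or more. The 17 peaks with midpoints beyond 1 kb had a median of 1245 bp against 911 bp, but they include the wide Junb and Jund peaks, which reach over a start. The 12 peaks beyond 10 kb had a median of 1072 bp (range 734 to 1923 bp) against 880 bp over all such peaks.

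For 2 of the 5 wide peaks the midpoint lay over 1 kb from the assigned start, against 34.5% of all 290 peaks wider than 3000 bp. Of the 10 genes, 4 are at most 5 kb long, and for 2 of those 4, Junb and Jund, a single peak held at least 80% of the gene, against 3.88% of protein coding genes of that size. A width was that of 1 replicate's call and depends on its depth, and the part of depth in these widths was not tested.

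**Figure D4:**
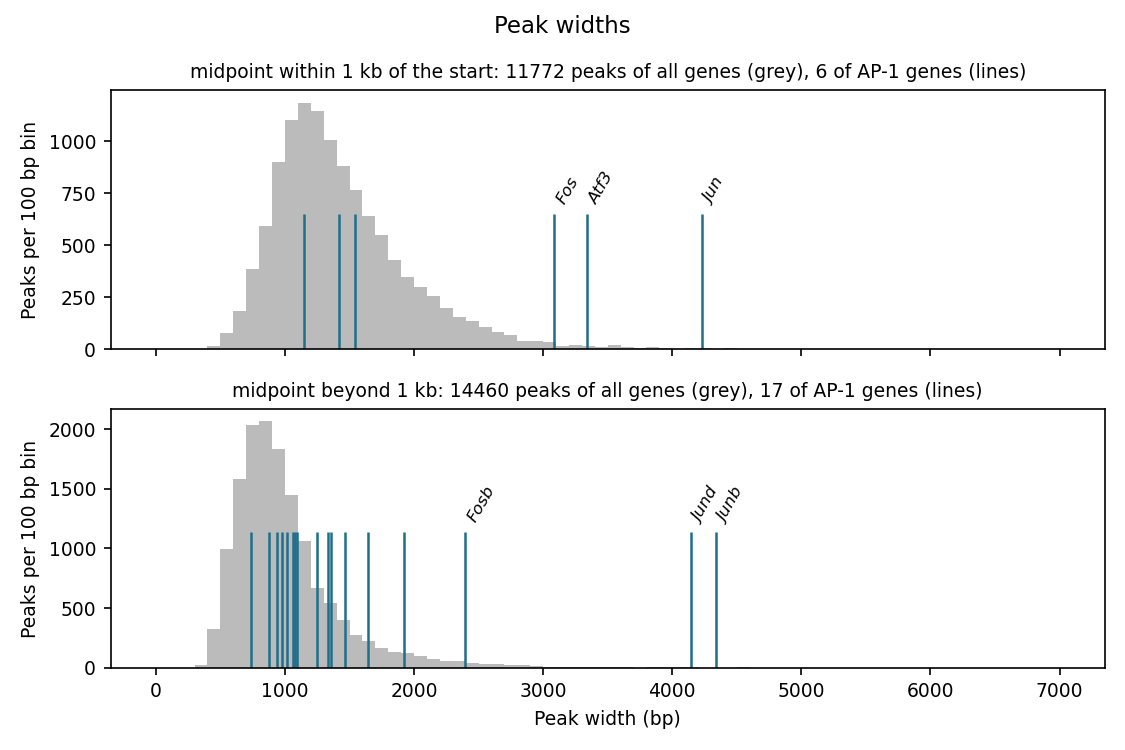
Widths in bp (x axis) of peaks with a midpoint within 1 kb of the start (top) and beyond (bottom), as counts per 100 bp bin, with all peaks in grey and the peaks of AP-1 genes as lines of equal height. Fos, Atf3 and Jun in the top panel and Jund and Junb in the bottom panel lie in the far right tail.

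Upstream placement was mixed, with 9 of the 17 peaks beyond 1 kb upstream of the start, against 44.2% of all such peaks. Their median distance was 22515 bp against 25163 bp over all. Their median GC content was 55.3% against 51.4% over all such peaks, and their median CpG ratio was 0.41 against 0.24. At the starts themselves, 8 of 10 were CpG-rich (ratio at least 0.6, GC content at least 50%), against 44.7% of protein coding genes, and the medians over all genes were a ratio of 0.56 and a GC content of 54.9%.

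Motifs were searched on both strands, with palindromic matches counted once, and a CArG box can itself contain CCAAT or TATAAA. In the central 500 bp, a TRE or CRE type match was found in 2 of 6 start-site peaks (Fosl1 and Fosl2), against 12.4% of all start-site peaks, and in 7 of 17 peaks beyond 1 kb, against 22.7%. Searching the whole peak gave 6 of 6 start-site peaks, against 34.3%, and all 5 wide peaks, against 65.2% of all peaks wider than 3000 bp. A longer search window holds more matches by length alone. Within 500 bp of the start, 3 of 10 genes had such a match (Fos, Fosl1 and Jun), against 31.9% of genes, so that the share was near the background.

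A CArG box stood within 500 bp of the start in 2 of 10 genes (Fos and Fosb), against 4.33% of genes. Anywhere in a peak it was found in 3 of 23 peaks, against 5.29% of all peaks, and in 2 of the 5 wide peaks (Fos and Junb), against 16.9%. TATAAA, on either strand, stood within 500 bp of the start in 4 of 10 genes, against 31.9%. A match is a run of letters and not a measured binding site.

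Other immediate early genes, other bZIP genes, and kinases and promoter factors upstream of AP-1 were counted for comparison. Of all protein coding genes, 62.5% had an assigned peak, 10.3% had at least 3 peaks and 1.18% had a peak over 3000 bp. Among 16 other immediate early genes, 14 had an assigned peak (none for Egr4 and Ier3), 8 had at least 3 peaks, and 2 had a peak over 3000 bp (Egr1 with 3602 bp and Egr2 with 3290 bp). Ier5, Ier2 and Egr3 had the most peaks, with 8, 7 and 7. CArG boxes within 500 bp of the start were found at Egr1 and Zfp36. The median of the widest peak per gene, over genes with a peak, was 2166 bp, against 2740 bp for the AP-1 genes.

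Among 19 other bZIP genes, 15 had an assigned peak (none for Atf4, Atf5, Atf7 and Batf2, although a peak assigned to another gene lay within 500 bp of an Atf5 start) and the Ddit3 peak was 3768 bp wide. Bach2 and Jdp2 had the most, with 5 and 4 peaks, followed by Mafa, Nfe2l2 and Maf with 3 each. All 16 kinases and promoter factors upstream of AP-1 had a peak, each within 500 bp of a start, and none exceeded 3000 bp. Mapk8, the kinase JNK1 that phosphorylates Jun, had 4 peaks, and Rps6ka1 and Elk3 had 3 each. The median widest peak was 2154 bp for the bZIP genes and 1536 bp for the kinases and promoter factors.

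**Figure D5:**
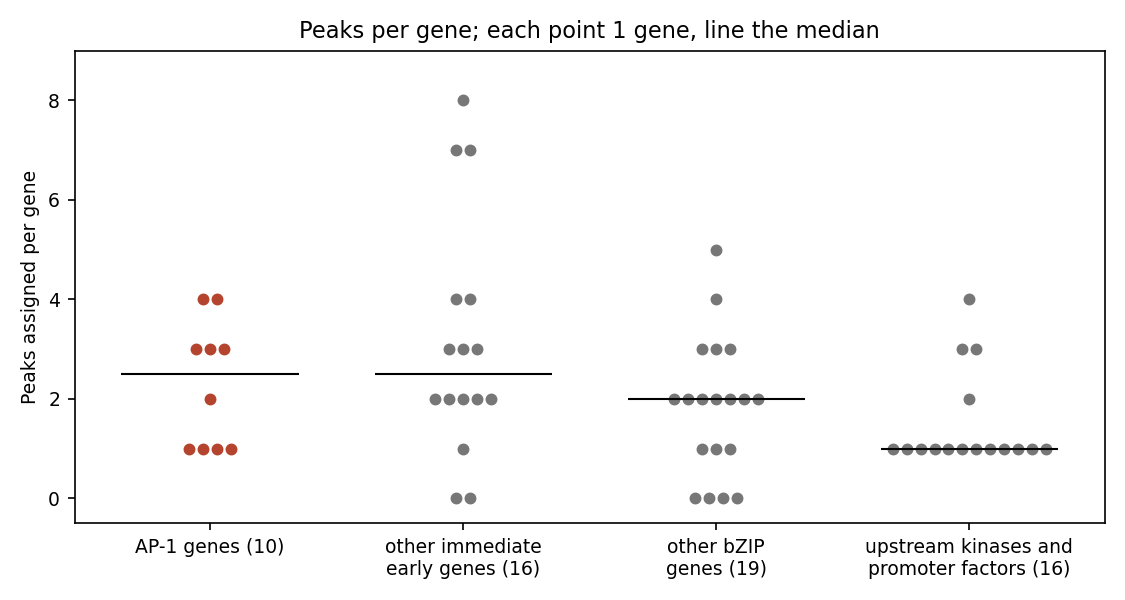
Peaks assigned per gene (y axis) for the 10 AP-1 genes and the 3 comparison lists, with each point 1 gene and a line at the median. The AP-1 genes range from 1 to 4 peaks, and other immediate early genes reach 8.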

How the data were processed

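ATAC-Seq was performed on 2 replicate samples of day 5 CPCs. Per the study's methods and the submitters' processing notes, the authors mapped reads to mm9 with Bowtie2, filtered them with SAMtools, removed duplicates with Picard 1.136, called peaks with MACS, dropped blacklisted regions and kept peaks found in both replicates with bedtools 2.15. A shift for the Tn5 cut position is not given in the sources used here beyond a fixed shift at peak calling. The deposited list gives, per line, coordinates, a signed distance in bp from a start to the peak midpoint, an accession and a symbol, with no count or p-value. The nearest-start step is described for ChIP-Seq peaks alone. The start behind a deposited distance can differ from the annotated start, from which peak spans and motif positions were counted.

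Distinct intervals were counted once (26429 lines, 26232 distinct). Gene models and sequence came from GENCODE vM1 and NCBIM37 (mm9). A RefSeq gene table was used for names and for its set of 21896 protein coding genes, but not for positions, and 99.9% of peaks matched it by accession or symbol. The shares of genes with an assigned peak, at least 3 peaks, a peak beyond 1 kb or a peak over 3000 bp were taken over that set. Shares for peaks, motifs or CpG content at annotated starts were taken over 22219 GENCODE protein coding genes. The share of protein coding genes with a peak is given with a 95% Wilson interval, which covers counting error over genes only. The scripts used Python 3.11.15, pandas 2.3.3 and pysam 0.24.0. Only the search for TRE type matches and the overlap of peaks with starts were tested on simulated data. The 10 genes and all comparison lists were chosen with earlier results of these data known. Named genes were the 10 members, the 3 genes with the most peaks of each other list (ties by the widest peak), all genes without a peak where at most 5 lacked one, and neighbours within 150 kb. Egr1, Egr2, Zfp36, Ddit3, Nfe2l2, Maf, Fggy and the shared run of bases were chosen after their values were seen. Regions called in a single replicate were dropped by the authors, and some lines may be missing here, so a missing peak is not a measure of closed chromatin.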

Additional observations from a re-analysis of the deposited data

How the results depend on the processing

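Of 37 alternative values over 10 results, 34 stayed within 1.5 times the count or within the order-statistic interval of the median. This says little for the start-site width, whose interval is the whole range of its 6 values, 1147 to 4227 bp, or for the minimum width of 500 bp, which every AP-1 peak exceeds (narrowest 734 bp). The other 3 moved. Counting every peak within 50 kb of a start raised the peaks of the AP-1 genes from 23 to 53, since peaks of neighbouring genes are then included. Requiring the peak midpoint, rather than any overlap, within 500 bp of a start lowered the genes with a peak over a start from 8 to 4. This left out Fos, Fosl2, Junb and Jund, with deposited distances of -724, -784, 1571 and 2249 bp. Searching the whole peak raised the start-site peaks with a TRE or CRE type match from 2 to 6. The median start-site width of 2314 bp was 3086 bp with a class reaching 2 kb and 3212 bp for peaks overlapping 500 bp around a start, an alternative chosen after seeing the data, as was the search around the starts. No paired analysis was possible because both replicates share 1 list, and neither replicate could be left out. Depth is unknown, so a missing peak at Batf or Fosb cannot be set against a detection limit.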
